A study of Homo sapiens with 29 samples.

Results

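The comparison of erlotinib with AF154 (EA) against no treatment (UT) asks how far cells that receive an EGFR inhibitor together with an AXL-activating antibody remain from their untreated state. It was made in PC9, an established lung adenocarcinoma cell line whose growth depends on a mutant EGFR. The libraries were chosen by their labels: the UT and EA libraries of the parental line (PAR), the line with wild-type AXL (WT) and the lines Y634F, Y643F, Y698F, Y726F, Y750F and Y821F, each named for the AXL tyrosine changed to phenylalanine. This gave 16 of the 29 libraries of the series, with 1 UT and 1 EA library in each of 8 lines. A further 2 libraries, UT and EA of the kinase-dead line (KD), were set beside them without a test, and the 8 libraries treated with erlotinib alone (E) gave each line's value without AF154. In EA, cells received 1 µM erlotinib, a small-molecule inhibitor of the EGFR kinase, and 300 ng/mL AF154, an antibody that activates AXL, for 24 h. In E they received 1 µM erlotinib for 24 h, and each dish was seeded with 300000 cells. PAR carries its own AXL gene. The other lines are knockout (KO) cells, in which CRISPR-Cas9 was aimed at the AXL kinase domain, transduced with a lentivirus that carries the AXL form in their name and a puromycin selection marker. Their AXL form is driven from a vector, and by the study's description most cells of the transduced lines did not express AXL, so their bulk libraries mix cells with and without the receptor. The 29 libraries include no EA library of the KO line, so AF154 in cells without an AXL insert could not be examined.

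EGFR and AXL are receptor tyrosine kinases. EGFR in its mutant form signals without pause through the RAS–ERK cascade, which feeds the cyclin D and E2F programme of cell division, and through PI3K and AKT, which hold FOXO transcription factors out of the nucleus. Erlotinib blocks that kinase, while AXL, a member of the TAM family whose natural ligand is GAS6, can feed part of the same cascades and is known in EGFR-mutant lung cancer as a route by which cells tolerate EGFR inhibitors.

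Marker genes of 5 cell types were examined, though the sample labels name no cell type. All 10 epithelial markers examined were expressed, and their summed level was 8824 to 9723 TPM in the UT libraries and 10850 to 11766 TPM in the EA libraries, led by KRT7, a simple-epithelial keratin, at 3164 to 6164 TPM. The mean of KRT7 was 3332 TPM in UT and 5718 TPM in EA, and KRT19, CLDN4, CLDN7, CDH1 and GRHL2 also had the higher mean in EA. KRT18 (1971 TPM in UT and 1250 TPM in EA), KRT8, EPCAM and ESRP1 had the lower mean in EA. Markers of alveolar type II cells, the surfactant-making cells of the lung, were close to nil, with 0 of 9 kept after filtering and sums of 1.64 to 4.47 TPM in UT and 2.94 to 8.45 TPM in EA. Among these, NAPSA was the most abundant and SFTPA1 was listed at 0 in all 16 libraries. Leukocyte markers summed to 12.1 to 23.8 TPM in UT and 31.8 to 53.4 TPM in EA, with 1 of 10 kept, most of it ITGAM, and the T cell genes CD3E and CD3D at 0. Fibroblast markers summed to 18.0 to 37.8 TPM in UT and 36.2 to 73.6 TPM in EA, with 1 of 9 kept, most of it COL1A1. Endothelial markers summed to 8.66 to 16.5 TPM in UT and 3.99 to 12.2 TPM in EA, with 0 of 7 kept. The part of these small sums in the results below was not tested.

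Levels are TPM, each gene's share of all transcripts in its library scaled to a fixed total, summed over the transcripts of each gene. A gene was kept when its mean over the 29 libraries was at least 10 TPM, which left 9085 genes. Differences are on the scale of log2(TPM + 1), which understates the change of genes with low values. Each was tested with limma within lines, with p-values adjusted by Benjamini-Hochberg over the 9085 genes. There was 1 library per line and treatment, so the lines served as the replicates, and a p-value measures the spread between lines that carry different receptors. TPM does not keep the number of reads, so the depth of each library is unknown. PAR stood apart from the other lines in both states. The root mean square (RMS) log2 difference between libraries was 0.418 to 0.468 for pairs with PAR in UT and 0.436 to 0.471 in EA, while pairs among the other lines (KD included) were at 0.204 to 0.332 and 0.232 to 0.372.

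Most expressed genes still differed from the untreated state in EA. At an adjusted p under 0.05, 6418 of 9085 genes (70.6%) were called: EA was the higher in 3005 (33.1%) and the lower in 3413 (37.6%). The median size of a called difference was 0.47 (log2), and 3415 were smaller than 0.5. A stricter test, which asks for a change of more than 2-fold, called 444 genes (4.89%), 224 (2.47%) higher and 220 (2.42%) lower. Of the 224, 85 had a UT mean under 10 TPM, and of the 220, 74 had an EA mean under 10 TPM. With 10 TPM required in every library compared, 220 genes were called past 2-fold, 105 higher and 115 lower. In 4827 genes (53.1%) all 8 lines moved the same way, 2143 up and 2684 down. Without PAR, 6512 genes were called and 470 were past 2-fold. The median difference over all 9085 genes was -0.03. The 114 called differences of at least 2 in size comprised 76 rises and 38 falls, and the plot of all genes shows both tails.

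**Figure D1:**
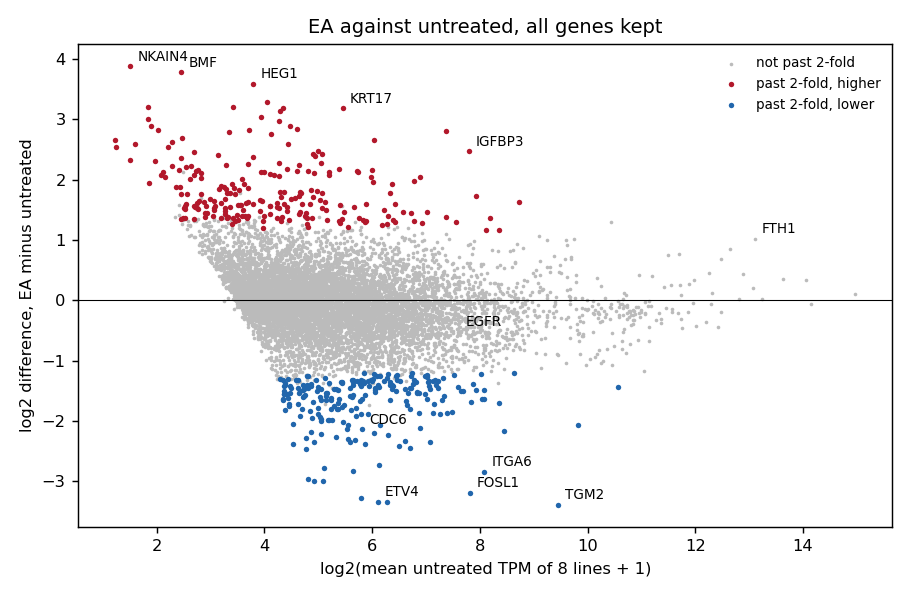
Each point is 1 of 9085 genes, with its mean UT level over 8 lines on the x axis (log2(TPM + 1)) and the EA minus UT log2 difference on the y axis, coloured by the call of more than 2-fold. The 224 genes past 2-fold above 0 reach 3.89 and the 220 past 2-fold below 0 reach -3.39.

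The 10 largest falls were, in order of size, TGM2 (-3.39), HMGA2 (-3.34), ETV4 (-3.33), SLCO4A1 (-3.27), FOSL1 (-3.19), ETV5, PHLDA1, MALL, ITGA6 and CDCA7. Of these, HMGA2, ETV4, FOSL1, ETV5 and PHLDA1 are on the list of ERK output genes. TGM2 (ENSG00000198959, GRCh38 chr20:38127387-38166578), which crosslinks proteins, ranged from 601 to 763 TPM in UT (median 704) and 45.0 to 86.0 TPM in EA (median 66.9). The groups were far apart, and the level was 10.5-fold lower in EA (log2 difference -3.39 ± 0.08 (SE, n = 8 lines), adjusted p = 4.2e-11 by limma). Its E median was 67.9 TPM, and the 8 lines showed no difference between EA and E past the threshold (log2 difference 0.10, adjusted p = 0.423 by limma). ETV4 (ENSG00000175832, chr17:43527844-43579620), an ETS factor whose transcription follows ERK activity, ranged from 63.2 to 72.0 TPM in UT (median 67.8) and 3.49 to 9.24 TPM in EA (median 5.74). The highest EA library lay far under the lowest UT library, and the log2 difference was -3.33 ± 0.11 (SE). Its relative ETV5 lay at 26.9 to 38.4 TPM in UT (median 33.0) and 1.37 to 7.17 TPM in EA (median 2.87), with a difference of -2.99. FOSL1, an AP-1 subunit stabilised by ERK, lay at 199.5 to 249 TPM in UT (median 227) and 17.2 to 29.2 TPM in EA (median 24.4), with a difference of -3.19. PHLDA1, a growth-factor-induced gene, lay at 25.8 to 31.4 TPM in UT (median 29.6) and 2.05 to 3.24 TPM in EA (median 2.94). In TGM2, ETV4, ETV5, FOSL1 and PHLDA1 the highest EA library stood well under the lowest UT library.

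The others were the chromatin protein HMGA2, the organic anion transporter SLCO4A1, the membrane protein MALL (-2.95), the integrin subunit ITGA6 (-2.84) and the MYC- and E2F-linked gene CDCA7 (-2.82). All 10 fell in all 8 lines, and the largest adjusted p among them was 5.98e-08 by limma. ITGA6, a laminin receptor subunit, ranged from 235 to 325 TPM in UT (median 264) and 28.0 to 58.2 TPM in EA (median 33.6), and its E median was 27.8 TPM. It is the 1 of the 10 that also differed between EA and E past the threshold, with EA higher by 0.33 (adjusted p = 0.0236 by limma, 0.0277 to 0.349 over 10 alternatives). The call was lost without PAR, Y634F or Y643F and without the pairing by line. Apart from those of NDC80 and TPX2, every EA against E call of a gene named in the text was lost without the pairing. Without Y634F, all were lost but those of CEACAM6, NDC80, TPX2, TOP2A, CDK1, NUSAP1 and ANLN.

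The ERK output and feedback list held 28 genes, of which 17 were kept. Of these, 13 were lower in EA and 2 higher, against 37.6% and 33.1% of all genes, and 10 were past 2-fold lower and 1 higher, against 2.42% and 2.47%. Their median difference was -1.59, with -1.55 for E against UT and 0.03 for EA against E, and 0 of 17 were called between EA and E by limma, where 2.36% of all genes were, so that count is near the background. At an unadjusted p under 0.05 limma gave 2 of the 17, against 20.9% of all genes. With 10 TPM required in every library the median was -0.61. The lines ranged from -1.34 to -2.41, with PAR lowest. Both phosphatases kept, DUSP4 (-2.31) and DUSP7 (-1.32), which remove phosphate from ERK, were lower. SPRED2, an inhibitor of RAF activation and the only Sprouty or Spred gene kept, ranged from 19.1 to 25.2 TPM in UT (median 22.8) and 2.98 to 6.03 TPM in EA (median 4.97). The receptor gene EPHA2 was also lower (-1.88). MYC, the growth-promoting transcription factor, had -1.14. The 2 higher genes were JUNB, an AP-1 subunit (1.41), and the ephrin receptor EPHA4 (1.27), and the 2 not called were IER2 and KLF10. Of the 17 genes, 9 had a group mean under 10 TPM and passed the filter through their higher group. The 11 genes not kept include feedback genes whose mean over all libraries was under 10 TPM although UT was higher. DUSP6, for example, had a mean of 13.0 TPM in UT and 0.741 TPM in EA, and SPRY4 11.4 and 0.418 TPM.

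Every kept member of the lists of DNA replication and mitosis fell. These lists were written with earlier results of these data known, and they do not hold all such genes. Of 44 replication and G1/S genes, 40 were kept and all 40 were lower in EA, 27 of them past 2-fold, where 37.6% of all genes were lower and 2.42% past 2-fold lower, with a median difference of -1.43. Of the 40, 11 had a group mean under 10 TPM and passed the filter through their higher group. By role, the medians were -1.73 for the 16 genes of origin licensing and firing, -1.33 for the 14 polymerases and clamp proteins, -1.07 for the 6 genes of nucleotide supply and -1.87 for the 4 regulators of the G1/S step. Of 39 genes of mitosis and cytokinesis, 37 were kept and all 37 were lower (37.6% of all genes), 3 past 2-fold (2.42%), with a median of -0.96. In these bulk samples, fewer dividing cells and less RNA per dividing cell cannot be told apart. The genes not kept, ORC1, CCNE2, CDC25A and E2F2 of replication and SPC25 and CENPE of mitosis, had means over all libraries under 10 TPM.

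In the medians fitted over 8 lines both groups lay closer to UT in EA than in E, though the replication median did not in WT, and both held genes called between EA and E. The replication genes had a median difference of -1.77 in E against UT and of 0.33 in EA against E, where 15 of 40 were called higher. The mitosis genes had -1.23 and 0.32, and 27 of 37 were called higher in EA than in E. These counts stand beside 171 of 9085 genes (1.88%) higher and 43 (0.473%) lower in EA than in E, 214 in all (2.36%). The EA against UT and EA against E comparisons share the EA libraries, so these values stand side by side only. The number of EA against E calls depended on single lines, with totals of 10 to 188 when 1 line is left out. NDC80 and TPX2 kept the call in all 10 alternatives. TOP2A, CDK1, NUSAP1 and ANLN lost it only without the pairing by line. Across lines the EA minus UT median of the replication genes was -1.29 in Y643F, -1.37 in Y698F, -1.51 in Y634F, -1.52 in Y726F and Y750F, -1.53 in PAR, -1.72 in WT and -1.85 in Y821F. In E against UT it was -1.70 in Y643F, -1.78 in Y698F, -1.66 in Y634F, -1.71 in Y726F, -1.81 in Y750F, -2.17 in PAR, -1.69 in WT and -2.0 in Y821F. WT was the 1 line of the 8 whose EA value lay lower than its E value. The plot of list medians by line shows these values.

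**Figure D2:**
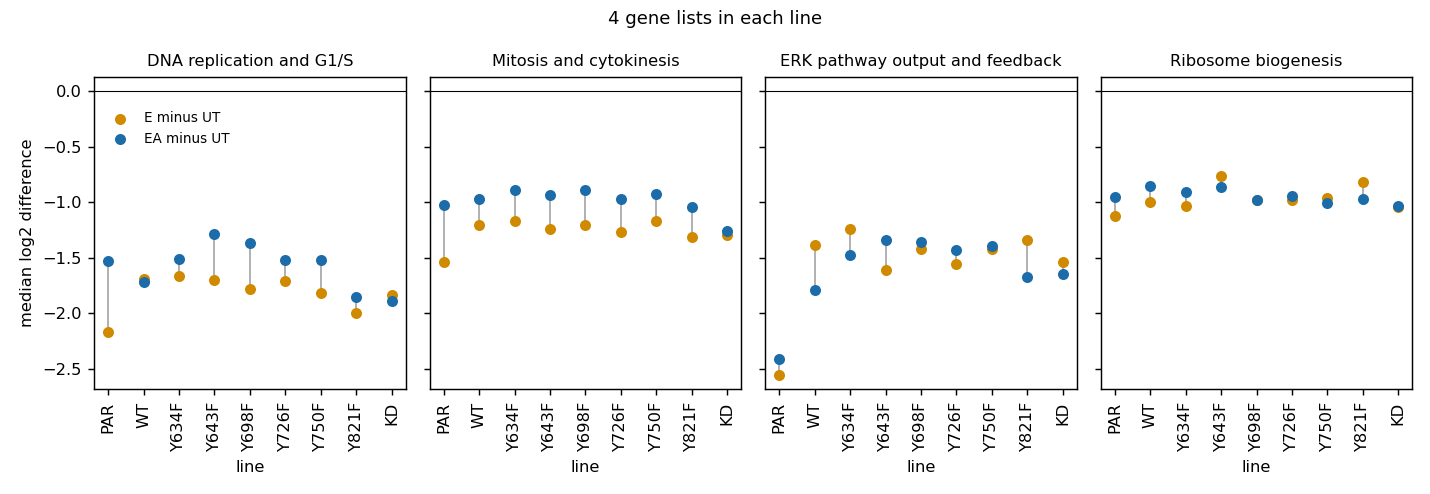
The y axis is the median log2 difference from UT over the kept members of 4 gene lists, in each of 8 lines and KD on the x axis, with E in orange and EA in blue. The replication medians in EA run from -1.85 in Y821F to -1.29 in Y643F, with KD at -1.89, and PAR has the lowest ERK output median, at -2.41.

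CDC6 (ENSG00000094804, chr17:40287633-40304657), which loads the replicative helicase at origins, was the gene with the largest called rise from E to EA. It ranged from 50.3 to 63.5 TPM in UT (median 54.0), from 3.79 to 10.1 TPM in E (median 7.41) and from 9.03 to 14.0 TPM in EA (median 12.1). Every treated library, with or without AF154, lay under every UT library. The EA minus UT difference was -2.13 ± 0.07 (SE, n = 8 lines), and the EA minus E difference was 0.67 ± 0.11 (adjusted p = 0.0194 by limma, 0.0217 to 0.0699 over 10 alternatives). That call was lost without Y634F or Y643F and without the pairing. TYMS, thymidylate synthase, ranged from 166 to 199.8 TPM in UT (median 175), from 21.8 to 44.4 TPM in E (median 33.6) and from 33.1 to 57.7 TPM in EA (median 50.1). MCM6, a subunit of the replicative helicase, ranged from 42.1 to 53.8 TPM in UT (median 44.5), from 3.46 to 8.84 TPM in E (median 6.92) and from 7.71 to 12.0 TPM in EA (median 10.9). In both, the EA median was nearer to the E median than to the UT median. FAM111B and LRP8 complete the 5 largest called rises from E to EA, at 0.53 each, and both stayed lower than UT in EA, at -1.71 and -1.98. DTL, an adaptor of the ubiquitin ligase that removes CDT1 in S phase, ranged from 25.2 to 38.4 TPM in UT (median 34.2) and 3.11 to 11.1 TPM in EA (median 5.81). MCM10, which helps to start the fork, had a difference of -2.34. Among mitotic genes, MYBL2, a factor that switches on mitotic transcription, had -1.46, and the kinase AURKB had -1.25.

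The promoters of these genes are shown because E2F factors, which act at the G1/S step, bind known short letters, and promoters of mitotic genes often hold another short element, the cell cycle homology region (CHR). The windows are from RefSeq on GRCh38.p14 and run 5′ to 3′ from 100 bases before to 25 after the start, with the matched letters in capitals. E2F was searched as TTTCCCGC or TTTGGCGC, and CHR as TTTGAA, on both strands.
CDC6, chr17:40287779-40287903, plus strand: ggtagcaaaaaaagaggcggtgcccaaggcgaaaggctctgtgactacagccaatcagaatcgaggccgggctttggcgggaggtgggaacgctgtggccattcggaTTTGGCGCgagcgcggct
DTL, chr1:212035648-212035772, plus strand: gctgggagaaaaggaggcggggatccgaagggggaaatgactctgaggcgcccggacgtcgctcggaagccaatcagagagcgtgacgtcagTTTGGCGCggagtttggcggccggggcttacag
MCM6, chr2:135876419-135876543, minus strand: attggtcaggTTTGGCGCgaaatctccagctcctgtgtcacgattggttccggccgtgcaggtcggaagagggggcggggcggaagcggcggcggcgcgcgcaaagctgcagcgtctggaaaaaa
E2F1, chr20:33686361-33686485, minus strand: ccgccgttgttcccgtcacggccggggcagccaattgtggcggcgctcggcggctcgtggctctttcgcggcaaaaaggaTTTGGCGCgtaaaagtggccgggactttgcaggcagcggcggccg
PLK1, chr16:23678789-23678913, plus strand: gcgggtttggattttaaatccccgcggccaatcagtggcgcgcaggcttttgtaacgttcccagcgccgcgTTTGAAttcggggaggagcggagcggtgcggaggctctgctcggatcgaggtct
Counting the start as base 1, the E2F letters TTTGGCGC begin at base 8 in CDC6. They begin 8 bases before the start of DTL, 90 before that of MCM6 and 20 before that of E2F1. The CHR letters begin 29 bases before the start of PLK1, a mitotic kinase. Over windows of 300 bases (250 before and 50 after each start), an E2F match was present in 4.92% of the 7355 kept genes that matched a promoter, in 55.6% of replication genes (20 of 36) and in 6.45% of mitosis genes. It was present in 15.7% of the genes past 2-fold lower (26 of 166) and 1.88% of those past 2-fold higher (3 of 160). A CHR match was present in 13.1% of kept genes, 64.5% of mitosis genes (20 of 31) and 5.56% of replication genes. Among the genes past 2-fold, it was present in 12.0% of the lower (20 of 166) and 18.1% of the higher (29 of 160). Of all 35116 promoters in the table, 2.27% held the E2F letters and 15.2% the CHR letters. No motif searched contains another. A gene counts when any of its starts has a match, and kept genes had 1.48 starts on average, so these shares describe letters in a window and not occupied sites.

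Genes of ribosome biogenesis and most genes of glycolysis were also lower. Over all genes 33.1% were higher and 37.6% lower, with 2.47% and 2.42% past 2-fold, and these shares stand beside every list count that follows. Of 32 ribosome biogenesis genes, all kept, 31 were lower and 0 higher (limma, adjusted p), 6 past 2-fold, with a median of -0.86. The lines lay between -0.85 and -1.0. In E against UT the median was -0.92, and 1 of the 32, the nucleolar protein NCL, was called higher in EA than in E, near the 1.88% of all genes. UBTF was the 1 gene not called. LYAR, a nucleolar protein, had -1.73, and POLR1B, the second-largest subunit of RNA polymerase I, -1.59. Among ribosome biogenesis promoters 48.1% (13 of 27) held the E-box letters CACGTG, which MYC and related factors bind, against 13.3% of kept genes and 7.26% of all promoters. Of 17 kept genes of glycolysis and glucose transport, 13 were lower and 0 higher (limma), with a median of -0.40. LDHA, which turns pyruvate into lactate, ranged from 1048 to 1196 TPM in UT (median 1116) and 548 to 619.7 TPM in EA (median 581), a difference of -0.94. ENO1, enolase, ranged from 1281 to 1871 TPM in UT (median 1358) and 541 to 1138 TPM in EA (median 624), a difference of -1.08. Both sets of libraries were apart in both genes, and both genes were slightly higher in EA than in E, by 0.20 for LDHA (adjusted p = 0.0115 by limma) and 0.23 for ENO1 (adjusted p = 0.0236 by limma). Of 10 alternatives 2 lost the call of LDHA and 5 that of ENO1.

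Most genes of the ATF4 and amino acid list were lower, and several transporters on it were higher. Of 30 kept ATF4 targets and amino acid genes, 21 were lower and 5 higher, with a median of -0.50 (-0.33 with a mean of at least 1 TPM or no filter), and all 11 aminoacyl-tRNA synthetases kept were lower (median -0.52). PSAT1, an enzyme of serine synthesis, had -1.48, and MTHFD2, of mitochondrial folate metabolism, -1.41. The 5 that rose were ATF3, a stress-induced factor (1.22), and the amino acid transporters SLC7A5 (1.0), SLC3A2 (0.66), SLC38A2 (0.54) and SLC7A11 (0.22). Nuclear genes of oxidative phosphorylation were lower in 22 of 31 and higher in 1, with a median of -0.27. CYCS, cytochrome c, had -1.18. Of 31 cholesterol and fatty acid genes, 9 were higher and 11 lower, shares near those of all genes, with a median of -0.10. The sterol reductase TM7SF2 rose by 1.59. In E against UT 10 of the 31 were higher and 18 lower, against 34.5% and 40.8% of all genes, with a median of -0.23. Between EA and E limma called 1 of the 31, higher in EA (1.88% of all genes). At an unadjusted p under 0.05 limma gave 16 of the 31, against 20.9% of all genes.

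The largest rises included genes that hold back PI3K or the cell cycle or promote apoptosis. BMF (ENSG00000104081, chr15:40087890-40108892), a BH3-only protein that opposes BCL2, ranged from 2.88 to 8.48 TPM in UT (median 3.74) and 60.2 to 82.0 TPM in EA (median 69.7). The groups did not overlap, and EA was 13.8-fold higher (log2 difference 3.79 ± 0.13 (SE, n = 8 lines), adjusted p = 3.57e-10 by limma). With erlotinib alone the median was 81.8 TPM, and EA lay under E by 0.22 (adjusted p = 0.0339 by limma, 0.0339 to 0.268 over 10 alternatives, 7 of which lost the call). PIK3IP1, a membrane protein that inhibits PI3K, ranged from 1.93 to 3.66 TPM in UT (median 2.43) and 26.3 to 34.7 TPM in EA (median 32.7), a difference of 3.21. CDKN2B, which encodes the CDK4/6 inhibitor p15, ranged from 11.3 to 17.4 TPM in UT (median 14.6) and 72.9 to 155 TPM in EA (median 129), a difference of 3.04. Both were lower in EA than in E, by 0.31 (adjusted p = 0.0375) and 0.26 (adjusted p = 0.041), both by limma. Of 10 alternatives 8 lost the call of PIK3IP1 and 7 that of CDKN2B, among them those without Y634F, without Y643F and without the pairing. In these 3 genes the lowest EA library exceeded the highest UT library several times over.

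NKAIN4 (ENSG00000101198, chr20:63240784-63272694), which encodes a partner of the sodium pump's beta subunit, had the largest rise of all. It ranged from 0.777 to 4.32 TPM in UT (median 1.34) and 17.6 to 56.3 TPM in EA (median 40.0), a difference of 3.89 ± 0.16 (SE). HEG1, a membrane receptor known from endothelial junctions, ranged from 9.30 to 19.0 TPM in UT (median 12.5) and 96.4 to 201 TPM in EA (median 167), a difference of 3.59. The others among the 10 largest rises were FILIP1L (3.29), the alpha-tubulin TUBA1A (3.21), the keratin KRT17 (3.19), the scavenger receptor OLR1 (3.14) and the alkaline phosphatase ALPP (3.19). ALPP has near-identical paralogs and TUBA1A close relatives, so their values are uncertain. All 10 rose in all 8 lines, with adjusted p no larger than 1.25e-09 by limma. KRT17 was highest in PAR in both treatments, at 145 TPM in UT and 1146 TPM in EA, where the medians were 29.1 and 291 TPM.

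The list of FOXO and PI3K-restrained genes held 19, among them 3 FOXO factors and 5 receptors and adaptors, and 15 were kept. Of these, 12 were higher and 2 lower, 5 past 2-fold higher, with a median of 1.11 (33.1% of all genes were higher). Control of the members by FOXO was not tested. The median was 0.67 with 10 TPM required in every library, 0.73 with a mean of at least 1 TPM and 0.70 with no filter, and 4 of the 15 passed the filter through their higher group. The medians of the lines ran from 0.55 in PAR to 1.42. CITED2, a transcriptional co-regulator, ranged from 9.72 to 16.4 TPM in UT (median 11.1) and 40.8 to 75.0 TPM in EA (median 61.9), a difference of 2.25 with no overlap. CCNG2, an unusual cyclin that goes with cell cycle arrest, rose by 1.86. The 2 lower genes were the insulin receptor substrate IRS1 (-0.73) and KLF6. KLF6, a zinc-finger factor, had -0.22 (adjusted p = 0.0226 by limma) and was lower in 7 of 8 lines, but the call was lost without PAR, WT, Y634F or Y643F and without the pairing by line. The promoter of PIK3IP1 is shown as an example of the letters GTAAACA, the forkhead motif, here on the opposite strand as TGTTTAC, beginning at base 17 with the start used as base 1 (the table lists another start with no match in the same window).
PIK3IP1, chr22:31292464-31292588, minus strand: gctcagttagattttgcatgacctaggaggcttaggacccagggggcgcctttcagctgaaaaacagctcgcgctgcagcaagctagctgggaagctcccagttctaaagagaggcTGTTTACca
GTAAACA was present in 28.6% of the FOXO list (4 of 14), in 16 of the 160 genes past 2-fold higher, in 3.43% of kept genes and in 3.42% of all promoters.

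Genes of the BCL2 family and of the CDK inhibitor and D-type cyclin list were called in both directions. Of 13 kept BCL2 family genes, 5 were higher and 5 lower, near the shares of all genes (33.1% and 37.6%). Their median of 0.00 changed sign with 10 TPM required in every library, with the KD pair included and without WT, Y634F, Y698F, Y726F or Y750F. BCL2L11, which encodes the apoptosis activator BIM, ranged from 12.0 to 19.2 TPM in UT (median 14.6) and 29.8 to 44.8 TPM in EA (median 41.1), a difference of 1.31. BBC3, which encodes PUMA, rose by 1.04. BCL2L1, which encodes the survival protein BCL-XL, ranged from 114 to 127 TPM in UT (median 119) and 40.1 to 61.8 TPM in EA (median 55.1), a difference of -1.14. BMF, described above, PMAIP1 (0.22) and BOK (0.65) complete the 5 that rose. BID (-0.54), BAK1 (-0.36), BAX (-0.20) and MCL1 (-0.20) complete the 5 that fell. Of the 4 CDK inhibitors kept, CDKN2B, CDKN1B (0.67) and CDKN2A (0.60) were higher and CDKN1A, which encodes p21, was lower (-0.39). Of the 4 D-type cyclins and partners, CCND1 (-0.73), CCND3 (-0.86) and CDK4 (-0.74) were lower and CDK6 was not called. The list of 11 had a median of -0.24, with PAR at -0.58 and the other lines between -0.16 and 0.09, and it was -0.13 without PAR.

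Lysosome, autophagy and antioxidant genes were mostly higher. Of 35 kept lysosome and autophagy genes, 27 were higher and 4 lower, 5 past 2-fold higher, and the median was 0.34 for lysosome genes and 0.73 for autophagy genes. TP53INP2, an autophagy adaptor, rose by 2.36. CTSL, GLA, NPC2 and UVRAG were lower, at -0.28, -0.25, -0.17 and -0.17. Of 20 NRF2 and antioxidant genes, 17 were higher and 0 lower (limma), with a median of 0.43. FTH1, the ferritin heavy chain that stores iron, ranged from 7657 to 10413 TPM in UT (median 8636) and 14166 to 20882 TPM in EA (median 17849), a difference of 1.02, and the UT and EA libraries did not overlap. FTH1 has many processed pseudogenes, which can share its reads. Antigen presentation genes were higher in 9 of 12 and lower in 2, with HLA-E at 1.29 and HLA-B at 1.16. The 2 lower genes were CD274, which encodes PD-L1 (-1.55), and the peptide transporter TAP2 (-0.68). CD74, the class II invariant chain, rose by 1.04, a call lost without the pairing by line (adjusted p = 0.0719 by limma). Interferon-stimulated genes were higher in 7 of 11 kept and lower in 1, and their median of 0.33 was 0.57 with a mean of at least 1 TPM. STAT2 was at 1.16, IRF9 at 1.23 and OAS3 at -0.84.

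Genes of adhesion and the cytoskeleton rose and fell within the same lists. Of 25 kept junction genes, 19 were higher and 5 lower, with a median of 0.40, and 9 of 10 tight junction genes were higher (median 0.58). CDH1, E-cadherin, rose by 0.82, and TJP3, a tight junction scaffold, by 1.30. The 5 lower genes were CEACAM6, PKP3 (-0.52), EPCAM (-0.37), ESRP1 (-0.19) and CTNNB1 (-0.15). CEACAM6, a surface adhesion glycoprotein, ranged from 58.3 to 118 TPM in UT (median 81.8) and 7.73 to 40.5 TPM in EA (median 13.8), a difference of -2.41, and it was higher in EA than in E by 0.44 (adjusted p = 0.00887 by limma, a call lost without the pairing by line, where it was 0.66). Of 31 focal adhesion genes, 15 were higher and 11 lower, with a median of 0.19, where 33.1% of all genes were higher and 37.6% lower. The integrin subunit ITGAV rose by 0.98, whereas ITGA6 was among the largest falls. NEDD9, a scaffold that binds FAK and SRC kinases, ranged from 42.7 to 65.0 TPM in UT (median 51.4) and 153 to 282 TPM in EA (median 230.3), a difference of 2.14 with no overlap. FERMT1, kindlin-1, fell by 1.65.

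Among 17 kept genes of EMT and TGF-beta signalling, 12 were higher and 2 lower, 5 past 2-fold higher and 1 lower (2.47% and 2.42% of all genes), with a median of 0.77. The median was 0.39 with 10 TPM required in every library, 0.43 with a mean of at least 1 TPM and 0.41 with no filter. The smooth-muscle actin-binding protein TAGLN rose by 2.97, the ligand TGFB2 by 2.24 and the factor SOX4 by 2.28. The 2 lower genes were VIM, vimentin (-0.59), and the factor FOXQ1 (-2.73). Of 19 kept YAP/TAZ targets, 12 were higher and 4 lower (33.1% and 37.6% of all genes), with a median of 0.55 in EA against UT, 0.55 in E against UT and -0.01 in EA against E, where 0 of 19 were called by limma, near the background of 2.36% (5 of 19 at an unadjusted p under 0.05, against 20.9%). The line medians ran from -0.12 in PAR to 0.79, and in the 7 lines other than PAR from 0.40, and without PAR the median was 0.56. IGFBP3, an IGF-binding protein, ranged from 167 to 408 TPM in UT (median 195) and 1018 to 1979 TPM in EA (median 1080.5), a difference of 2.47. CCN1, a matrix protein often used as a YAP readout, rose by 1.0, and CCN2, another, was not called (0.10). The 4 lower genes were NT5E, the ectonucleotidase CD73 (-2.33), FJX1 (-1.69), ANKRD1 (-0.57) and ASAP1 (-0.23). Of 19 kept keratin and filament genes, 10 were higher and 8 lower. MYL9, a myosin light chain, rose by 2.90, and KRT6A, a keratin with near-identical paralogs and so uncertain, had -2.07.

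The receptors themselves differed in direction. EGFR (ENSG00000146648, chr7:55019021-55211628) ranged from 171 to 258 TPM in UT (median 188) and 109.6 to 153 TPM in EA (median 134). The lowest UT library stood above the highest EA library, and EGFR was lower in all 8 lines (log2 difference -0.52 ± 0.09 (SE, n = 8 lines), adjusted p = 0.000311 by limma). PAR went from 258 to 109.6 TPM, a difference of -1.23, against -0.62 to -0.22 in the other lines. AXL (ENSG00000167601, chr19:41219203-41261766) ranged from 217 to 428 TPM in UT (median 323) and 232 to 849 TPM in EA (median 487), and the groups overlapped. Within lines AXL went from 217 to 338 TPM in WT, 273 to 437 in Y634F, 311 to 493 in Y643F, 335 to 591 in Y698F, 428 to 762 in Y726F, 423 to 849 in Y750F and 297 to 481 in Y821F. In PAR, the line with its own gene and no vector, it went from 351 to 232 TPM.

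AXL was higher in 7 of 8 lines (log2 difference 0.59 ± 0.14 (SE, n = 8 lines), adjusted p = 0.00217 by limma), and without PAR the difference was 0.76 (adjusted p = 1.36e-07 by limma). The KO line, which had no AXL insert, held 92.4 TPM in UT and 79.3 TPM in E, so AXL TPM in the transduced lines can include RNA of the edited endogenous gene beside that of the vector. EA was under E in all 8 lines, by 0.13 on the log2 scale, which did not pass the threshold (adjusted p = 0.0593 by limma). GAS6, the AXL ligand, rose by 0.67, and TYRO3, another TAM receptor, fell by 0.58. Of the other ERBB receptors, ERBB3 ranged from 31.5 to 40.5 TPM in UT (median 36.6) and 65.9 to 102 TPM in EA (median 80.6), a difference of 1.17 with no overlap, and ERBB2 rose by 0.58. ERRFI1, an inhibitor that binds the EGFR kinase, fell by 0.90, and the ligand TGFA by 0.49. Of 9 kept TAM and bypass receptor genes 6 were higher and 2 lower (median 0.44, or 0.18 with no filter), and of 7 kept ERBB genes 3 were higher and 4 lower, the others being RNF41 (0.38) and SOCS2 (-0.48). IGF1R rose by 1.11. The plot of genes by line shows AXL, EGFR and others in UT, E and EA.

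**Figure D3:**
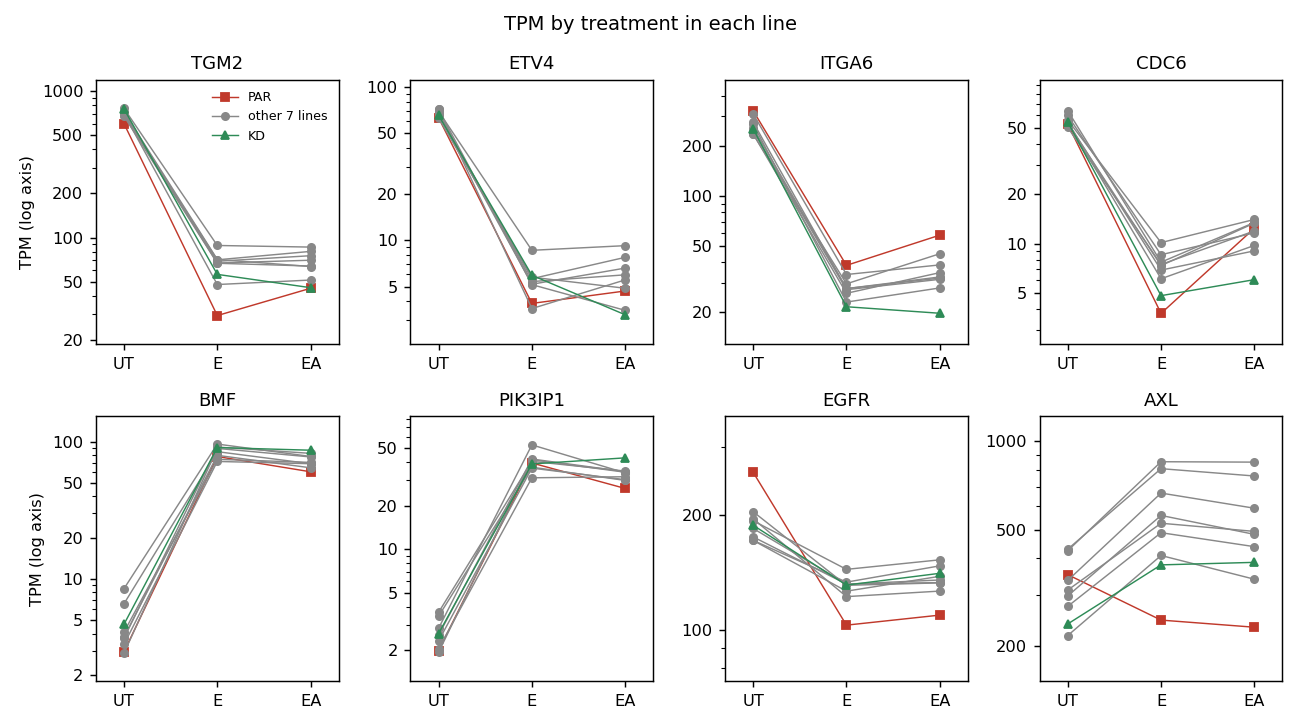
Each panel shows 1 gene, with TPM on a log axis against UT, E and EA, and each line of the plot joins the 3 libraries of 1 cell line (PAR red squares, KD green triangles, the other 7 lines grey). AXL falls in PAR from 351 to 232 TPM and is higher in EA than in UT in the other 7 lines, while CDC6 in EA lies between E and UT and closer to E.

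Smaller lists moved both ways. Of 12 kept p53 targets, 5 were higher and 6 lower (median -0.17), with TP53I3 at 1.53 and AEN at -1.65, and the median turned to 0.27 when genes of at least 1 TPM were kept. Of 7 kept cytokines and chemokines, 3 were higher and 3 lower (median 0.01). That median turned to -0.48 with 10 TPM required in every library or a mean of at least 1 TPM, and to -0.31 with no filter. It also changed sign without Y634F, Y643F, Y750F or Y821F. CXCL16 rose by 1.04 and IL11 had -0.48. TNFSF10, which encodes the death ligand TRAIL, rose by 2.13 and IL6 by 1.59, while VEGFA fell by 1.40 and LIF by 0.50. In the BCL2, EMT, interferon, antigen, lysosome and autophagy, cytokine and p53 lists, 2 to 4 kept members had a group mean under 10 TPM. The plot of lists shows all 24 medians, to be set beside the all-gene median of -0.03.

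**Figure D4:**
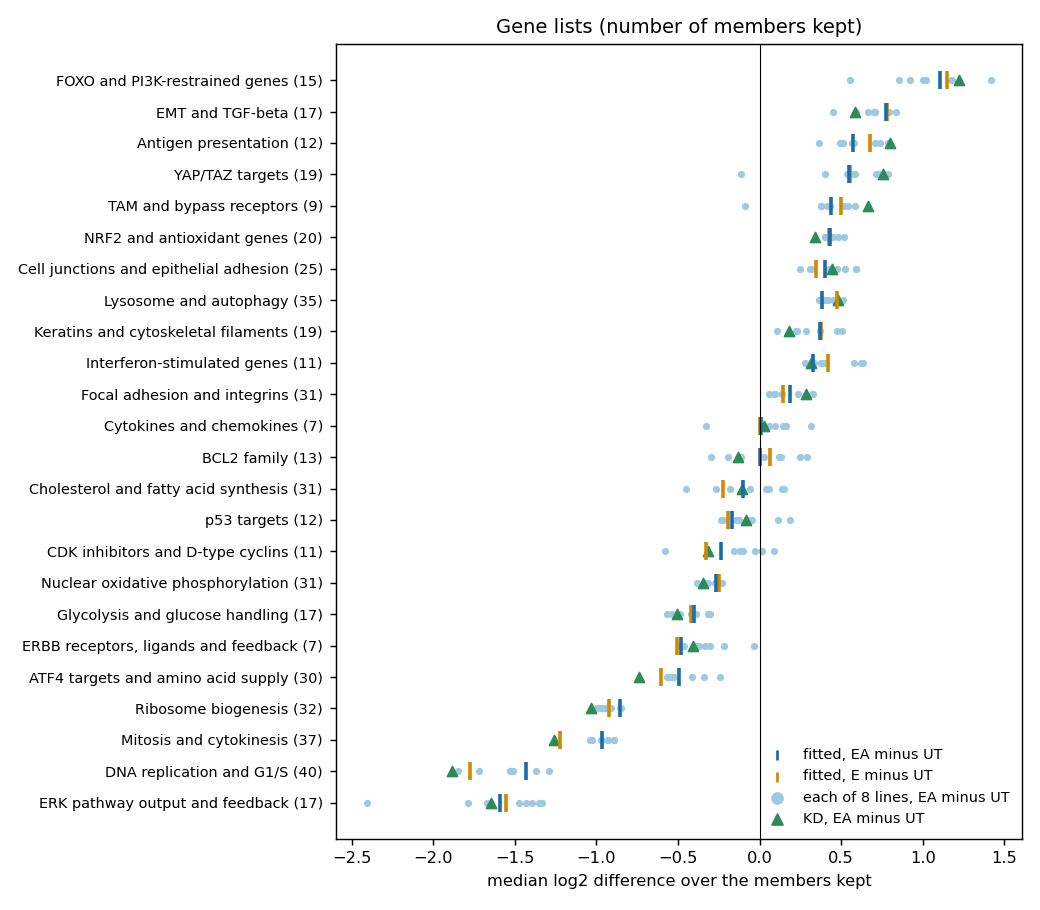
For each of 24 gene lists (number kept in parentheses) the x axis gives the median log2 difference over its kept members, with fitted EA minus UT as blue bars, fitted E minus UT as orange bars, each of 8 lines as pale dots and KD as triangles. ERK output (-1.59) and replication (-1.43) lie lowest, in an order that turns without PAR (-1.45 and -1.47), and the FOXO list lies at 1.11, with the ERK and FOXO medians nearer 0 (-0.61 and 0.67) with 10 TPM required in every library.

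Each line's distance from its own untreated library was measured as the RMS of the log2 differences over the 9085 genes. It was smaller in EA than in E in 8 of 8 lines. The distances in E and EA were 0.776 and 0.650 in PAR, 0.734 and 0.669 in Y698F, 0.684 and 0.639 in Y643F, and 0.695 and 0.650 in Y634F. They were 0.716 and 0.678 in Y726F, 0.710 and 0.687 in WT, 0.741 and 0.724 in Y750F, and 0.766 and 0.764 in Y821F. The mean was 0.728 ± 0.0328 (SD) in E and 0.683 ± 0.0425 in EA, a difference of 0.0451 ± 0.0379 (SD, n = 8 lines). An exact permutation test that flips the signs of the 8 differences, two-sided, gave p = 0.00781, the smallest that 8 lines allow, and 0.0156 after adjustment over 2 such tests. Without PAR the difference was 0.0335. As a share of the E distance this was 16.2% in PAR, 2.29% to 8.80% in WT and the lines Y634F to Y750F, and 0.279% in Y821F. The plot of distances sets these values side by side.

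**Figure D5:**
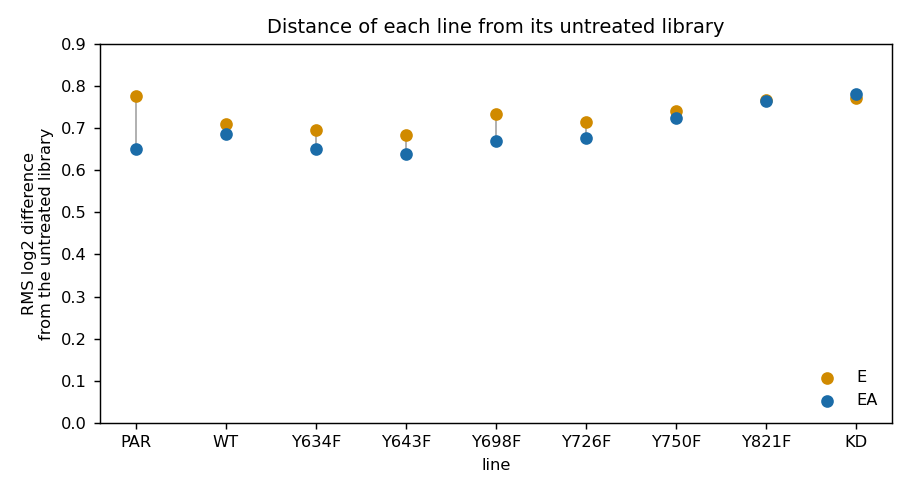
The y axis is the RMS log2 difference from the line's own UT library over 9085 genes, from 0, for E (orange) and EA (blue) in 8 lines and KD on the x axis. EA lies lower than E in the 8 lines, most in PAR (0.776 to 0.650), and the points nearly coincide in Y821F.

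Counted by gene, E against UT gave 6842 called genes (75.3%), 3138 (34.5%) higher and 3704 (40.8%) lower, with 654 past 2-fold. The EA against UT counts given above share the UT libraries with these. Between EA and E, no difference passed 2-fold (limma; 1895 genes had an unadjusted p under 0.05), and the largest called size was 0.67, in CDC6. The 214 calls fell to 10 without Y634F, 18 without Y643F, 55 without PAR or without Y698F, 76 without Y750F, 94 without Y821F and 131 without WT, and to 9 without the pairing by line. With library medians centred there were 205 calls, split into 133 higher and 72 lower in place of 171 and 43. The largest called fall from E to EA was in ATG9B, an autophagy membrane protein, which lay at 0.876 to 7.06 TPM in UT (median 2.65), 21.5 to 49.0 TPM in E (median 38.0) and 19.1 to 43.1 TPM in EA (median 24.9). EA stayed 2.83 above UT and lay 0.44 under E (adjusted p = 0.0236 by limma), a call lost without Y634F, Y643F or Y698F and without the pairing. MCRIP1, a co-regulator released from CTBP by ERK, had medians of 37.5 TPM in UT, 71.6 TPM in E and 59.2 TPM in EA.

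The KD pair, whose receptor lacks kinase activity, had 1 library per treatment and no test. All 444 genes past 2-fold in the 8 lines had the same sign in KD, and the median of the risers was 1.94 in KD against 1.52 to 1.89 in the 8 lines, and of the fallers -1.91 against -1.48 to -1.78. The KD difference was the lowest of the 9 lines in 128 of the 220 fallers, where the next count was 43, in Y821F, and the others had 1 to 21. It was the highest in 63 of the 224 risers, where Y821F had 49 and the rest 5 to 37. The 444 genes were called on the 8 lines and not on KD. Over all 9085 genes KD lay outside the other 8 in 1900 (20.9%), 705 above and 1195 below, while PAR lay outside the other 8 in 3759 (41.4%), Y821F in 2544 and the remaining lines in 1411 to 2024. The replication median was -1.89 in KD EA and -1.84 in KD E, and the mitosis median -1.26 and -1.30. TGM2 went from 757 to 45.4 TPM in the KD pair, BMF from 4.67 to 86.4 TPM and CDC6 from 54.2 to 6.05 TPM with 4.85 TPM in E. The KD distance from UT was 0.772 in E and 0.781 in EA, with EA the farther of the pair.

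The share of TPM in mitochondrial genes was 13.4% ± 1.07 (SD) in UT and 14.9% ± 1.63 in EA, a difference of 1.48 ± 1.75 percentage points (SD, n = 8 lines). EA was higher in 6 of 8 lines, and the same exact permutation test gave p = 0.0469, which adjustment over the 2 tests left at 0.0469. Y821F went from 13.2% to 17.9% and had the largest rise, and without Y821F the difference was 1.02. The call was lost when PAR, Y634F, Y643F, Y698F, Y750F or Y821F was left out. TPM has a fixed total, so a rise in such a share lowers all other genes a little. Leaving out mitochondrial genes gave 6385 calls in EA against UT, 3149 higher and 3236 lower, in place of 3005 and 3413. The part of this share in the results was not tested beyond those counts.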

How the data were processed

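RNA of PC9 cells was sequenced in 29 libraries. Sequencing and alignment were done by a service provider, and the submitters' processing notes name kallisto and GRCh38 without versions. The authors deposited a table of TPM per transcript, so each library sums to a fixed total and its depth is unknown. TPM does not keep counts, and no count test was run.

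Here transcript TPM was summed per gene with GENCODE 29, which matched 169797 of 188753 transcripts and 97.0% to 97.4% of TPM. The deposited table is not filtered on level. Genes were kept here when they averaged 10 TPM or more over 29 libraries. The study's methods also name a limit of 10 TPM, without saying over which libraries. log2(TPM + 1) was fitted with limma 3.58.1 (R 4.3.3, trended prior, line as a block), and limma's treat tested for more than a 2-fold change. Single values were tested with exact sign-flip permutation tests over 256 sign patterns (scipy 1.17.1 and numpy 2.4.6 under Python 3.11.15, with pandas 2.3.3). The fit was tested on simulated data. Pairing comes from the labels, since UT and EA of a pair come from the same cell line. As a check, the correlation of the UT and EA deviations from their group means was 0.55 in PAR and -0.11 to 0.26 in the other lines. Per the study's methods each dish received E or EA, so these libraries come from separate dishes, with 1 library per line and treatment. The methods do not describe the UT dishes, so their harvest time and any vehicle are unknown. Whether UT was matched in time to EA therefore cannot be told.

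The members and the 24 gene lists were chosen with earlier results of these data known. Named genes were AXL and EGFR, the 10 largest rises and falls that moved the same way in 8 lines, the 2 largest rises and falls of each list and sole members of a role, 5 called rises and 5 called falls from E to EA by size, and 5 called genes with most spread among lines. Other members were named after their values were seen. Some genes the rule picked are not reported here, among them 2 on a sex chromosome. Promoters (300 bases) came from RefSeq, GRCh38.p14, for 7355 of the kept genes. Alternatives changed the pseudocount (0.1), the filter, scaling, weights, prior, block and libraries.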

Additional observations from a re-analysis of the deposited data

Results flagged for a closer look

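In 8 lines, a line was marked when its gap to the nearest other line, as a share of the whole range, exceeded Dixon's critical value. Of 142 groups of 8 values examined, 19 held such a line, where chance gives about 1 in 20 (7.1 of 142) for independent groups. That figure is only a guide here, since the groups share libraries and include genes picked for their size or for their spread between lines. It was PAR in 12, Y821F in 4, Y634F in 2 and Y726F in 1. The values below are log2 differences, EA minus UT.

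PAR stood apart in AXL (-0.59, others 0.64 to 1.0), EGFR (-1.23, others -0.62 to -0.22), the ligand GAS6 (0.092, others 0.57 to 0.92) and the survival gene BCL2L1 (-1.49, others -1.20 to -0.94). It also stood apart in the adhesion gene CEACAM6 (-0.88, others -2.95 to -2.09), the transporter SLC7A5 (0.59, others 0.94 to 1.13), the reductase AKR1C3 (1.20, others 0.61 to 0.78) and CD74 (1.72, others 0.72 to 1.09). Its list medians stood apart for CDK inhibitors and D-type cyclins (-0.58, others -0.16 to 0.09), ERK output (-2.41, others -1.79 to -1.34), TAM and bypass receptors (-0.090, others 0.38 to 0.58) and YAP/TAZ targets (-0.12, others 0.40 to 0.79).

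Y821F was lower than all others in MYBL2 (-1.95, others -1.52 to -1.18), FJX1 (-2.18, others -1.80 to -1.47), FOXQ1 (-3.36, others -2.81 to -2.43) and TYMS (-2.33, others -1.88 to -1.62). Y726F was lowest in POLR1B (-2.44, others -1.79 to -1.23). Y634F stood apart in FAM111B (-1.40, others -1.84 to -1.64) and in the clone-named gene ENSG00000256514 (4.42, others -0.60 to 1.77), whose reads may be shared with copies.

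H4C4, a replication-dependent histone gene with near-identical copies and so uncertain, had -0.039 in KD, where the 8 lines had 0.37 to 3.89. KD has 1 library per treatment, and this difference was not tested.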

How the results depend on the processing

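EA against UT gave 6418 calls, and other settings gave 6680 with the KD pair included, 6684 with 24 libraries in 1 fit, 6582 with array weights, 6434 with library medians centred (3272 higher, 3162 lower) and 6089 with no replicate block (399 past 2-fold). The number of calls past 2-fold moved to 220 (105 higher, 115 lower) with at least 10 TPM in every library, where 7441 genes were tested, and the genes called higher moved to 4538 with no filter, where 25271 were tested. Leaving out 1 line gave 6125 to 6512 calls and 385 to 470 past 2-fold.

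For EA against E (alternatives chosen after seeing the data) leaving out 1 line gave 10 (without Y634F) to 188 calls, 10 to 146 higher and 0 to 42 lower. The 0, by limma without Y634F or Y643F, stood beside 603 and 550 genes lower at an unadjusted p under 0.05. With no replicate block there were 9 calls, 9 higher and 0 lower (288 lower at an unadjusted p under 0.05), and with library medians centred 72 were lower. The fit without the block lost the EA against E call of every gene named in the text but NDC80 and TPX2. In EA against UT it lost those of KLF6 and CD74.

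The mitochondrial share differed by 1.02 to 1.80 percentage points when 1 line was left out, with exact permutation p of 0.0312 to 0.0938, and lost the call in 6 of 8. The distance difference kept its sign in every such set, at 0.0335 (without PAR) to 0.0512, with exact p = 0.0156, and as a median absolute difference it was 0.0195 in 7 of 8 lines (exact p = 0.0469).

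The BCL2 family median of 0.00 turned to -0.015 with the KD pair, to -0.13 with at least 10 TPM in every library and ranged from -0.049 to 0.059 without 1 line. The cytokine median of 0.01 turned to -0.48 with at least 10 TPM in every library or a mean of at least 1 TPM, to -0.31 with no filter, and ranged from -0.032 to 0.060 without 1 line. The p53 target median of -0.17 turned to 0.27 with a mean of at least 1 TPM and 0.28 with no filter. Other list medians moved with the filter, which changes the members kept. With at least 10 TPM in every library ERK output went from -1.59 to -0.61, FOXO from 1.11 to 0.67 and EMT from 0.77 to 0.39. With a mean of at least 1 TPM FOXO was 0.73, EMT 0.43, ATF4 -0.33 (from -0.50) and interferon 0.57 (from 0.33). With no filter FOXO was 0.70, EMT 0.41, ATF4 -0.33, interferon 0.47 and TAM and bypass receptors 0.18 (from 0.44). Some medians moved under other settings. With quantile normalization mitosis was -0.88 (from -0.96), NRF2 0.49 (from 0.43), lysosome and autophagy 0.45 (from 0.38) and oxidative phosphorylation -0.19 (from -0.27). Without WT ribosome biogenesis was -0.92 (from -0.86). ENSG00000256514 lost its call with no filter, a robust prior and without Y643F or Y821F. The cause was not tested in any of these, beyond the number of genes or lines each setting leaves. Of the named gene values in EA against UT, 2232 kept their direction and side of the threshold and 12 lost it. EA against E calls were not part of this count. Depth is unknown, so counting error could not be given.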
